A study of Danio rerio with 6 samples.

Results

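The 9 genes described here are members of the Hedgehog pathway, which were taken by name from a table of 21228 entries: the ligand genes shha, shhb and ihhb, the ligand release gene disp1, the decoy receptor gene hhip, the signal transducer gene smo, and the transcription factor genes gli1, gli2a and gli3. All 9 were present in the table as mRNA and had reads in all 6 libraries. Wild-type Tuebingen zebrafish embryos were exposed from about 1 hpf (hours post-fertilization) to pentachlorophenol (PCP), a biocide that uncouples oxidative phosphorylation, in DMSO vehicle. The groups at 10 hpf were the vehicle control 10C (0 μg/l PCP), 10L (5 μg/l) and 10H (200 μg/l), and those at 24 hpf were 24C (0 μg/l), 24L (5 μg/l) and 24H (200 μg/l). Each group was 1 pool of whole embryos sequenced as 1 library, so that no difference has a replicate check and every test compares 2 libraries, not 2 conditions.

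Hedgehog proteins are secreted signals of the notochord and the floor plate, which pattern the ventral neural tube and the somites of the vertebrate embryo. The ligand carries lipids and leaves its source cell with the help of the transporter-like protein Dispatched. In the receiving cell it binds Patched, which otherwise keeps Smoothened silent, and active Smoothened shifts the Gli proteins from repressor to activator forms. In zebrafish, gli1 encodes a main activator, while gli2a and gli3 products can activate or repress. Classical targets of the pathway include its own inhibitors, such as hhip, and also gli1.

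Values are normalized counts, that is, reads of a gene times 1 scaling factor of its library, recovered from 47409208 to 59864868 reads per library. FC is the normalized count of the first library over that of the second, and the bounds in parentheses are those of a 95% interval by Clopper and Pearson for counting error alone. A gene was said to have risen or fallen where it met the thresholds of the study, an FC beyond 2 in either direction and p under 0.05, with p taken here from the exact binomial distribution of its reads (two-sided, unadjusted). Since gene lengths were not used, levels are compared between libraries and never between genes. In whole embryos, fewer cells of a type and less RNA per cell cannot be told apart.

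In the 24H group, all 9 genes were above their control level, and 4 of them rose: gli1, gli2a, ihhb and disp1. In the same comparison 11.9% of the 21217 genes tested rose and 16.4% fell, 28.3% in all. The median log2 FC was 0.92 over the 9 genes and -0.03 over all measured genes (at least 10 reads on average in the 2 libraries). Since the 9 genes were chosen with earlier results of these data known, this contrast is not independent of that choice. In the 24L group, 8 of the 9 genes had an FC above 1, with a median log2 FC of 0.28 against -0.02 over all measured genes, but none passed, where 7.68% of all genes were called (3.50% higher and 4.18% lower). At 10 hpf the high and the low dose differed in ihhb and gli3, which both rose in 10L and fell in 10H. These were the only members called at that age, 2 of 9 in each group, against 6.04% of all genes called in 10L (3.65% higher, 2.39% lower) and 13.0% in 10H (6.69% higher, 6.33% lower). By its own counts from DEGseq, the study had more transcripts up than down in 24H and more down than up in 10L. Both balances are the reverse of those given here. The calls of members rest on few genes and on counting error alone. When a coefficient of variation of 0.4 between pools was assumed in edgeR, only gli1 of the 4 genes was still called in 24H, and 1 of 2 was in 10L and in 10H.

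**Figure D1:**
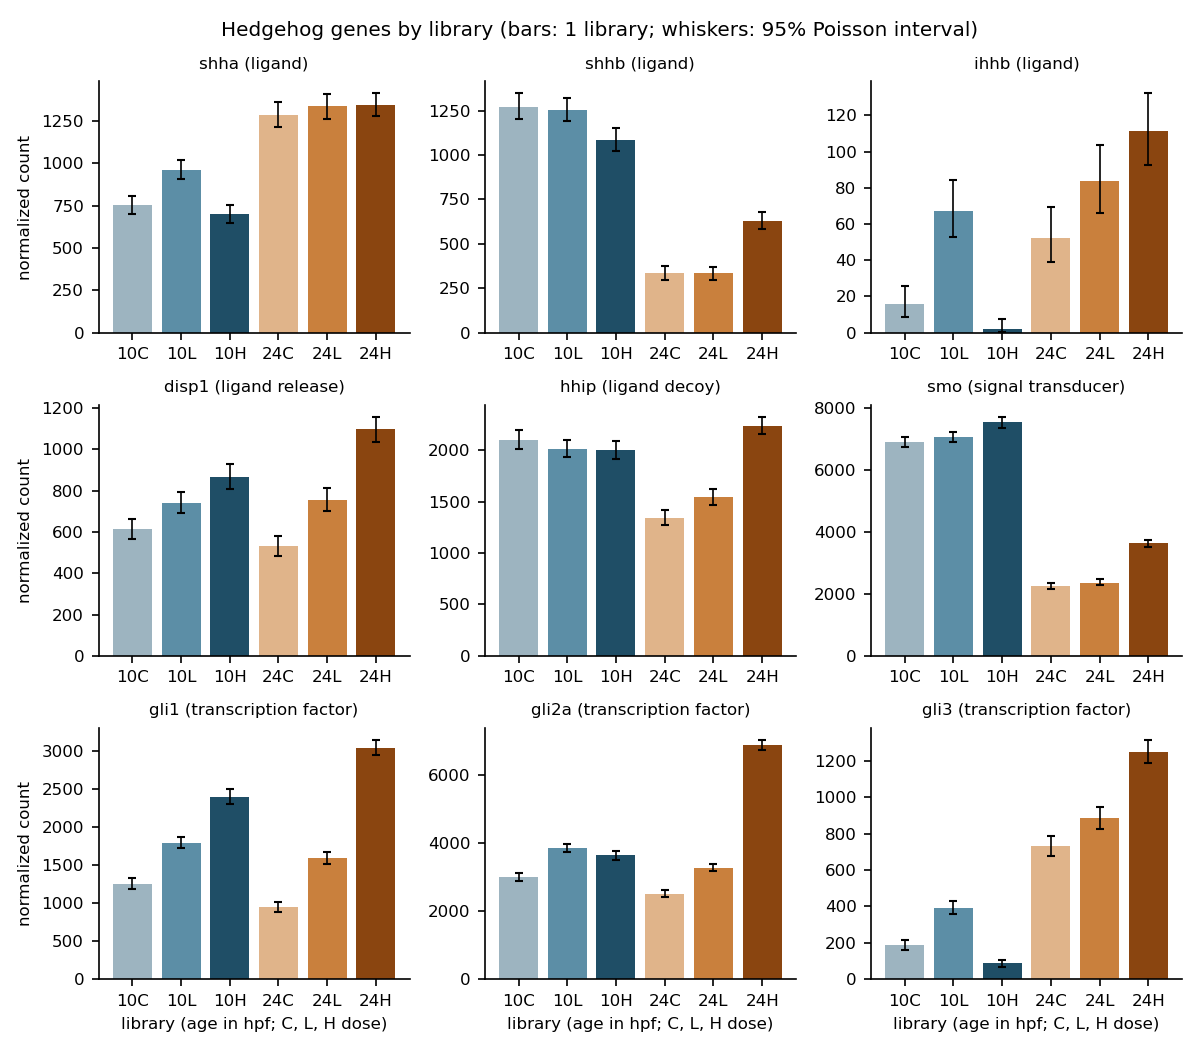
Normalized counts (vertical axes, from 0) of the 9 Hedgehog genes in the 6 libraries (horizontal axes), where each bar is 1 library and whiskers are 95% Poisson intervals of its reads. The gli1 and gli2a bars are highest in 24H (3051 and 6874), shhb and smo are higher in all libraries at 10 hpf than at 24 hpf, and ihhb is nearly absent in 10H (2.1).

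The ligand gene shha, whose product patterns the ventral neural tube and muscle, hardly differed between doses at 24 hpf. At 10 hpf the control had 751 normalized counts, the low dose 961 and the high dose 700.1, and at 24 hpf the same order gave 1287, 1334 and 1343. The 3 libraries at 24 hpf lay close together and above all libraries at 10 hpf. Against 24C, the 24L library had an FC of 1.04 (0.958 to 1.12) and the 24H library one of 1.04 (0.967 to 1.13), and both intervals included 1. Against 10C, the FC of the 10L library was 1.28 (1.16 to 1.41) and that of the 10H library 0.932 (0.837 to 1.04), neither of which passed.

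The paralog shhb, known as tiggywinkle hedgehog and expressed in the floor plate, behaved otherwise. Its normalized counts were 1273 (10C), 1255 (10L) and 1086 (10H) at the early age, and 334 (24C), 333 (24L) and 631 (24H) at the late one. Its level in 24H lay between those of the other libraries at 24 hpf and those at 10 hpf, with an FC of 1.89 (1.65 to 2.16) that did not reach 2-fold. The 24H library also exceeded 24L, with an FC of 1.89 (1.66 to 2.17). Between the control libraries shhb fell with age (24C over 10C, FC 0.262, 0.231 to 0.297), whereas shha had an FC of 1.71 (1.56 to 1.88).

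The share of shha in the reads of both paralogs does not depend on how the libraries were scaled. It was 37.1% (35.0 to 39.3) in 10C, 43.4% (41.4 to 45.3) in 10L and 39.2% (36.9 to 41.6) in 10H. At 24 hpf it was 79.4% (77.3 to 81.4) in 24C, 80.02% (78.0 to 81.9) in 24L and 68.0% (66.1 to 69.9) in 24H. Thus the 24H embryos had a lower share than both other libraries of their age, with intervals that did not overlap, and all 3 lay above the libraries at 10 hpf. This share and the shares of the gli genes were chosen after the values had been seen, and their intervals are Clopper-Pearson intervals for counting error only.

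The third ligand gene, ihhb, known as echidna hedgehog and expressed in the notochord, was the most weakly counted member and moved furthest. The control, low and high dose libraries held 15, 76 and 2 of its reads at 10 hpf, and 49, 81 and 129 at 24 hpf. At 10 hpf the low dose stood above the control and the high dose below it, while at 24 hpf both doses stood above. The gene rose in 10L (FC 4.27, 2.43 to 8.0) and fell in 10H (FC 0.134, 0.0148 to 0.574), and it rose again in 24H (FC 2.12, 1.52 to 3.01). Its FC of 1.59 (1.10 to 2.32) in 24L did not pass. The 10H library was also lower than the 10L library, with an FC of 0.0313 (0.00372 to 0.117). The call in 10H was lost when a mean of 10 reads in the 2 libraries was required, because the gene then was not tested.

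The disp1 gene, mutated in chameleon fish and needed for the release of Hedgehog proteins, followed the dose at both ages. From control to high dose its normalized counts ran 613, 740.4 and 867 at 10 hpf, and 531, 756 and 1095 at 24 hpf. Each dose stood above the one before it at its age. The gene rose in 24H (FC 2.06, 1.86 to 2.29), just past 2-fold, and the FC of the other treated libraries did not pass: 24L had 1.42 (1.27 to 1.60), 10L had 1.21 (1.09 to 1.35) and 10H had 1.42 (1.27 to 1.58).

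The hhip gene encodes a membrane protein that binds Hedgehog ligands and holds them back. Its normalized counts at 10 hpf were 2099.5 (10C), 2012 (10L) and 2001 (10H), and at 24 hpf 1345 (24C), 1541 (24L) and 2238 (24H). The libraries at 10 hpf did not differ beyond counting error, whereas 24H stood above the other libraries of its age and above the 10C level. Its FC in 24H was 1.66 (1.56 to 1.78) and in 24L 1.15 (1.06 to 1.24), neither past 2-fold.

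The smo gene, which encodes the transducer of the pathway, differed more between ages than between doses. Its normalized counts were 6903 (10C), 7072 (10L) and 7557 (10H) at 10 hpf, against 2263 (24C), 2372 (24L) and 3644 (24H) at 24 hpf. Every library at 24 hpf was lower than every library at 10 hpf, and between the controls the gene fell (24C over 10C, FC 0.328, 0.312 to 0.344). Against the controls, 24H had FC 1.61 (1.53 to 1.70), 24L had 1.05 (0.987 to 1.11), 10H had 1.09 (1.06 to 1.13) and 10L had 1.02 (0.992 to 1.06), and none passed.

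**Figure D2:**
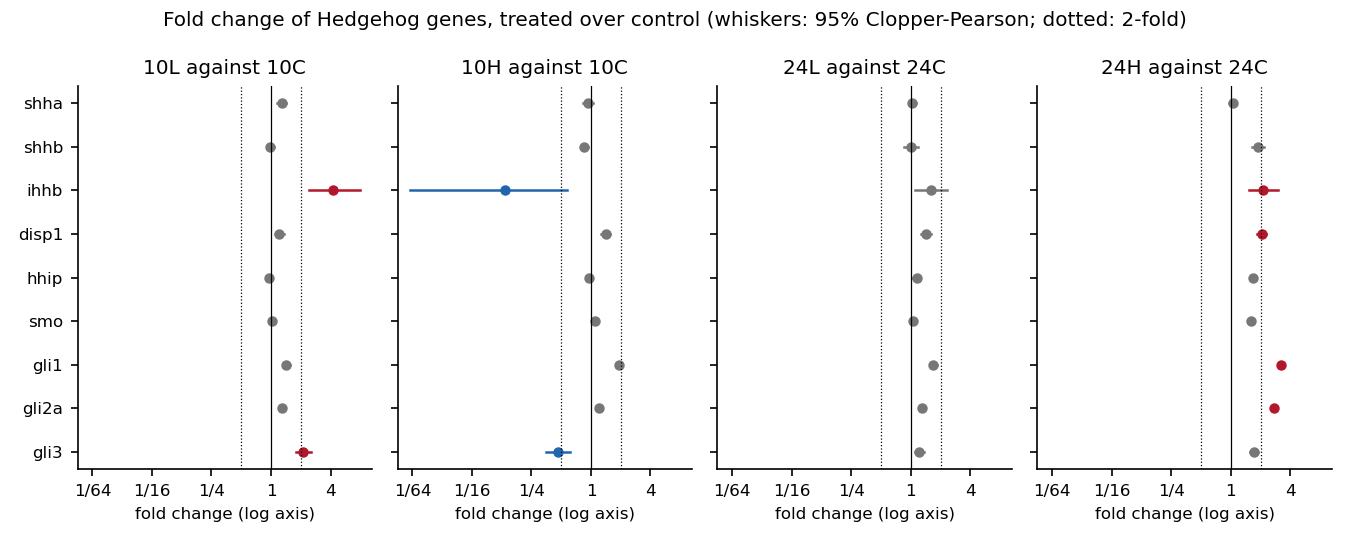
FC of the 9 Hedgehog genes (horizontal axis, log scale) in the 4 comparisons of a treated library with the control of its age, where points are FC, whiskers are 95% Clopper-Pearson intervals, dotted lines mark 2-fold, and genes that rose are red, those that fell blue and the others grey. In 24H all points lie at or right of 1, up to 3.22 for gli1, while ihhb and gli3 lie on opposite sides of 1 in 10L and 10H.

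The largest FC among the 9 genes in 24H was that of gli1, the activator that is also a target of the pathway. From control to high dose it had 1256, 1799 and 2403 normalized counts at 10 hpf, and 948, 1592 and 3051 at 24 hpf. The level thus went up with dose at each age, and 24H held the highest of all. It rose in 24H (FC 3.22, 2.99 to 3.47). The 10L library had FC 1.43 (1.33 to 1.54), 10H had 1.91 (1.78 to 2.05) and 24L had 1.68 (1.55 to 1.83), all below 2-fold. Of the 9 genes, gli1 and disp1 were higher at each of 4 dose steps (10C to 10L, 10L to 10H, 24C to 24L and 24L to 24H) with an exact binomial p under 0.05 at every step and no threshold on the FC. Among all genes, 428 of 21217 did so, or 2.02%, and adjacent steps share a library. With values scaled to library totals, disp1 no longer met this at every step and gli1 did.

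The gli2a gene, mutated in you-too fish, moved at 24 hpf and less at 10 hpf. Its normalized counts were 2999.7 (10C), 3861 (10L) and 3632 (10H) at the early age, and 2502 (24C), 3276 (24L) and 6874 (24H) at the late one. The 24H library alone stood apart, with more than any other library. The gene rose there (FC 2.75, 2.62 to 2.88) and was also higher than in 24L (FC 2.1, 2.01 to 2.19). Of the 9 genes it was the only one called between 24H and 24L, where 17.7% of all genes were called (6.74% higher, 11.0% lower). Against their controls, the 24L library had FC 1.31 (1.24 to 1.38), the 10L library 1.29 (1.23 to 1.35) and the 10H library 1.21 (1.15 to 1.27), none of which passed. The study lists gli2a among somite genes that it picked from these libraries, so its rise in 24H is not independent of that choice.

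The gli3 gene, whose product acts largely as a repressor where ligand is absent, had its levels in the same order over the doses as ihhb at both ages. In the order control, low and high dose it had 185, 391 and 86.2 normalized counts at 10 hpf, from 176, 442 and 82 reads, and 731, 886 and 1249 at 24 hpf. At 10 hpf the control lay between the doses, and at 24 hpf the level went up with dose. It rose in 10L (FC 2.12, 1.77 to 2.54), fell in 10H (FC 0.467, 0.355 to 0.61), and did not pass at 24 hpf, where 24L had FC 1.21 (1.10 to 1.34) and 24H had FC 1.71 (1.56 to 1.87). Between the doses at 10 hpf its FC was 0.22 (0.172 to 0.28) for 10H over 10L. Together with ihhb it made up the 2 of 9 members called there, both lower, where 16.4% of all genes were called (7.69% higher, 8.72% lower).

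The 3 gli genes therefore changed in unequal proportion within a library. The share of gli3 in the reads of gli1, gli2a and gli3 was 4.16% (3.58 to 4.80) in 10C, 6.46% (5.89 to 7.07) in 10L and 1.41% (1.12 to 1.74) in 10H. At 24 hpf it was 17.5% (16.3 to 18.7) in 24C, 15.4% (14.5 to 16.4) in 24L and 11.2% (10.6 to 11.7) in 24H, lower in the high dose than in the control at both ages. The share of gli1 at 10 hpf was 28.3% (26.9 to 29.7) in the control, 29.7% (28.7 to 30.8) at the low dose and 39.3% (38.0 to 40.5) at the high dose. At 24 hpf the control had 22.7% (21.4 to 24.0), the low dose 27.7% (26.5 to 28.9) and the high dose 27.3% (26.5 to 28.1), so that both doses stood above the control and their intervals overlapped.

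**Figure D3:**
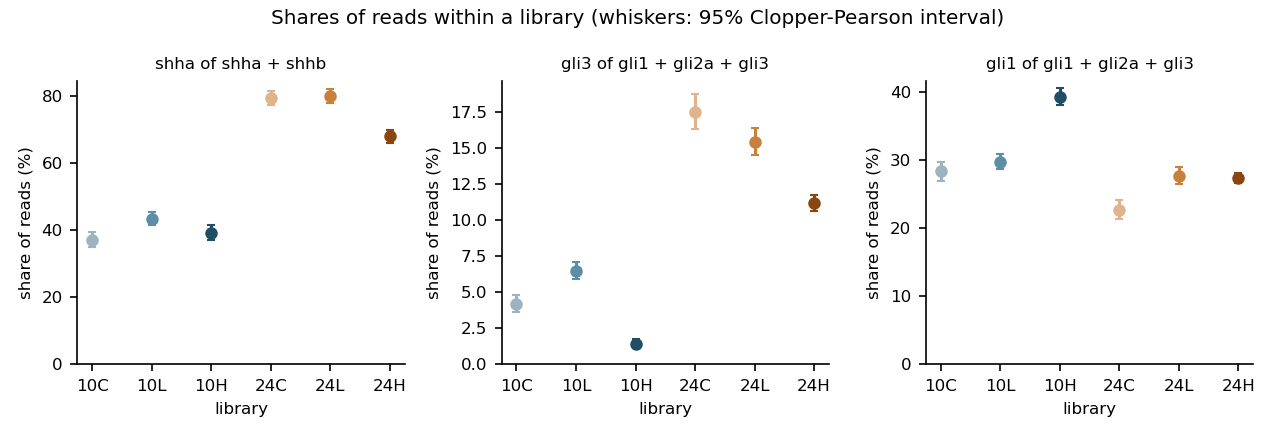
Share of reads in percent (vertical axes, from 0) by library, for shha among both shh paralogs (left), gli3 among the 3 gli genes (middle) and gli1 among the same 3 genes (right), with 95% Clopper-Pearson intervals as whiskers. The shha share is 68.0% in 24H against 79.4% in 24C, the gli3 share is lowest at each age in the high dose, and the gli1 share is 39.3% in 10H against 28.3% in 10C, and 27.7% in 24L and 27.3% in 24H against 22.7% in 24C.

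The effects of the high dose at the 2 ages were compared as differences of log2 FC, 24 hpf minus 10 hpf, which share no library. The difference was 3.99 (1.81 to 6.17) for ihhb, 1.87 (1.47 to 2.27) for gli3, 1.18 (1.08 to 1.28) for gli2a and 1.15 (0.922 to 1.37) for shhb. For hhip it was 0.80 (0.671 to 0.937), for gli1 0.75 (0.604 to 0.897), for smo 0.56 (0.467 to 0.646) and for disp1 0.54 (0.331 to 0.759). The interval of shha, 0.16 (-0.02 to 0.35), included 0. The first 8 genes were thus higher relative to control at 24 hpf than at 10 hpf beyond counting error, with intervals from the normal approximation of the reads. At the low dose the sign differed between genes: the difference was -1.42 (-2.37 to -0.474) for ihhb and -0.80 (-1.10 to -0.514) for gli3, but 0.26 (0.119 to 0.396) for hhip and 0.23 (0.0723 to 0.387) for gli1.

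Between the control libraries 10C and 24C, 4 of the 9 genes were called, where 46.8% of all genes were called (28.6% higher, 18.2% lower). From 10C to 24C, ihhb and gli3 rose, with FC 3.33 (1.84 to 6.39) and 3.96 (3.35 to 4.70), and shhb and smo fell. The other genes had FC 0.755 (gli1), 0.834 (gli2a), 0.64 (hhip), 0.866 (disp1) and 1.71 (shha). Set beside the FC of 24H over 24C, which shares the library 24C, shhb and smo differed from control in the direction of the 10C level, whereas ihhb and gli3 differed from it in the direction away from 10C. The gli1, gli2a, disp1 and hhip levels in 24H were above those of both controls.

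**Figure D4:**
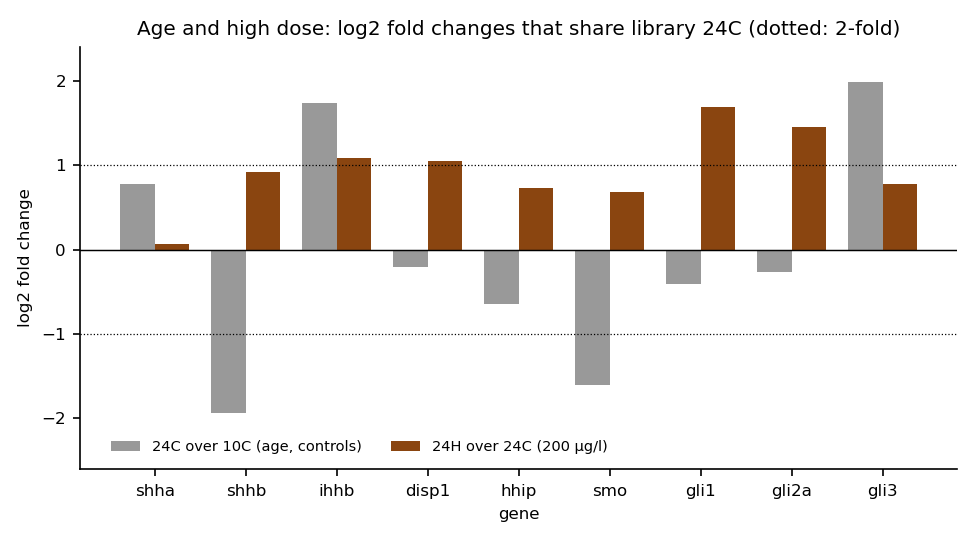
Log2 FC (vertical axis) of the 9 Hedgehog genes for age in the controls (24C over 10C, grey) and for the high dose at 24 hpf (24H over 24C, brown), with dotted lines at 2-fold. Each bar compares 2 libraries and both kinds of bar share library 24C. Brown bars are all above 0, while the grey bars of shhb (-1.93) and smo (-1.61) are below and those of ihhb (1.74) and gli3 (1.98) above it.

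The patterns of the 9 genes over the 6 libraries were compared by the root mean square difference of their centred log2 levels (1 added to normalized counts). The closest pair was shhb and smo, 0.16 apart, followed by gli2a and disp1 with 0.19. The disp1 gene was also nearest to gli1 (0.24), hhip (0.26) and shha (0.49), while ihhb and gli3 had each other as nearest, 0.68 apart. Among 8689 genes with at least 100 reads on average, mfsd1 (0.055), traf2b (0.076) and nudt17 (0.085) were nearest to shha, and nt5dc2 (0.12), zfp36l1b (0.15) and tnks (0.16) to gli1. The nt5dc2 gene, for example, ran 7246, 8835 and 12251 normalized counts from control to high dose at 10 hpf and 5726, 9537 and 15306 at 24 hpf.

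Of 44 other genes of ligand release, reception and transduction that matched the table, 43 were measured at 24 hpf, and 4 rose and 6 fell in 24H. Their median log2 FC there was 0.30. In 10H, 1 of 40 measured rose and 2 fell. The low dose called 1 of 40 in 10L and 1 of 43 in 24L, both lower, so that the share called in each group was below that of all genes given above. Here and below, list counts cover measured genes only, while the percentages over all genes include those with fewer reads. Among measured genes alone, 5533 of 17210 were called in 24H (2419 higher, 3114 lower) and 2345 of 15442 in 10H (1223 higher, 1122 lower).

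Among the other genes of ligand release, 1 of 8 measured rose and 4 fell in 24H, where 11.9% of all genes rose and 16.4% fell. The ligand gene ihha rose, from 93 reads in 24C to 302 in 24H (FC 2.62, 2.07 to 3.34), while the acyltransferase gene hhat, whose product puts the palmitate on the ligand, fell (FC 0.20, 0.132 to 0.294). Its relatives hhatla and hhatlb fell too, with FC 0.272 (0.249 to 0.296) and 0.302 (0.266 to 0.343), and disp2, a paralog of disp1, had FC 0.118 (0.0544 to 0.231) in 24H and 0.354 (0.215 to 0.568) in 24L. In 10H and in 10L hhatlb was the one that fell, from 57 reads in 10C to 10 and 29. The ihha gene had FC 1.55 (1.33 to 1.81) in 10H, where ihhb fell.

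The receptor gene ptch1, which is also a target of the pathway, was little above control in 24H (FC 1.23, 1.15 to 1.32), and the 10H library had FC 0.977 (0.885 to 1.08). Neither passed, whereas gli1, a target as well, had 3.22 and 1.91 in the same comparisons. The co-receptor genes boc, cdon and gas1a had FC 1.51, 1.63 and 1.54 in 24H and did not pass, and neither did gas1b, with FC 0.973 (0.926 to 1.02). Of 10 measured reception genes other than members, lrp2 rose there, which encodes the endocytic receptor megalin (FC 2.16, 2.03 to 2.30), and gpc3 fell with few reads, from 19 to 9. Over all genes, 11.9% rose and 16.4% fell in 24H. The ptch1, boc, cdon, gas1a, gas1b and gpc3 genes were chosen after their values had been seen, as were sufu and kif7 below. The glypican gene gpc4 rose in 10H (FC 2.07, 1.99 to 2.17).

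In 24H, where 11.9% of all genes rose and 16.4% fell, 2 of 25 other transduction genes rose and 1 fell. They were gli2b, the paralog of gli2a, with FC 2.98 (2.80 to 3.18), the receptor kinase gene adrbk2 with 2.55 (2.34 to 2.79) and the casein kinase gene csnk1e with 0.274 (0.204 to 0.363). The inhibitor gene sufu, whose product holds Gli proteins in the cytoplasm, and the kinesin gene kif7 had FC 1.56 and 1.58 in 24H and did not pass. The other listed casein kinase genes csnk1a1, csnk1da and csnk1db had FC 1.76, 1.22 and 1.73 in 24H and did not pass. In 10H, prkacab, a catalytic subunit of protein kinase A, fell (FC 0.42, 0.374 to 0.471). The other listed subunit genes prkacaa, prkacba and prkacbb had FC 1.57, 1.03 and 1.32 there and did not pass. These other kinase genes were named after their values had been seen. Of 38 measured genes of the cilium, the organelle in which the signal is relayed, 7 rose and 4 fell in 24H, and their median log2 FC was 0.07. The share of cilium genes called was thus close to the 28.3% over all genes, a percentage that is not limited to measured genes.

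Genes that Hedgehog signals are known to control in the embryo went both ways. In 24H, where 11.9% of all genes rose and 16.4% fell, 8 of 24 measured readouts that were not members rose and 3 fell. Their median log2 FC was 0.77 against -0.03 over all measured genes. Of 37 listed readout symbols, members included, 26 matched the table. Those not matched were the nkx genes, such as nkx2.2a and nkx6.1, and the pax1 genes. The counts therefore say nothing of these readouts. The slow muscle regulator prdm1a had FC 4.37 (4.10 to 4.67), the muscle regulator myf5 12.5 (11.0 to 14.2), the left-right and somite gene dmrt2a 5.75 (5.18 to 6.39) and the follistatin gene fsta 10.2 (9.43 to 11.2). The engrailed genes of muscle pioneer cells and of the midbrain, eng1a and eng1b, fell with FC 0.34 (0.269 to 0.429) and 0.403 (0.351 to 0.461), while eng2a and eng2b, of the same family, lay above control without passing, with FC 1.74 (1.58 to 1.91) and 1.498 (1.40 to 1.60). The olig2 gene, which marks motor neuron progenitors, had 0.623 (0.549 to 0.707). Between the controls (24C over 10C), 8 of the 24 readouts rose and 8 fell, against 28.6% and 18.2% of all genes. There prdm1a, myf5 and fsta fell (FC 0.183, 0.0709 and 0.148), and dmrt2a had 0.597 without passing. The eng1a, eng1b and eng2b genes rose there (FC 23.3, 165 and 16.7), while eng2a (0.846) and olig2 (0.702) did not pass. The eng1a, eng1b and olig2 genes were chosen after their values had been seen. In 10H, where 6.69% of all genes rose and 6.33% fell, 5 of 21 measured readouts fell and none rose. Below the minimum of 10 reads on average, eng1b was called higher there, with 13 reads against 4 (FC 3.26, 1.01 to 13.7). The count of members had no such minimum. Among the measured readouts that fell were eng2a (FC 0.101, 0.0789 to 0.127), eng2b (0.0501, 0.0133 to 0.133), vax1 (0.157, 0.0644 to 0.334) and dmrt2a (0.191, 0.157 to 0.231). Most of these genes also answer to other signals. The study lists myf5 among somite genes that it picked from these libraries, so the count in 24H is not independent of that choice. Whether those that fell in 10H answer to Hedgehog signals at 10 hpf was not tested.

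The tissues that make the ligands were followed by lists of notochord and floor plate genes other than members. In 24H, where 11.9% of all genes rose and 16.4% fell, 7 of 12 measured floor plate genes rose and 1 fell. Their median log2 FC was 1.11 and their summed normalized counts were 8052 in 24C, 10425 in 24L and 17703 in 24H. They included foxd3 (FC 4.11, 3.71 to 4.57), which neural crest expresses as well, scospondin (3.87, 3.15 to 4.77) and sulf1 (3.62, 3.42 to 3.84), while spon1a fell (0.0815, 0.0361 to 0.162). The floor plate genes spon1b and arx, in contrast, had FC 0.935 and 0.997. Between the controls (24C over 10C), 5 of the 12 genes rose and 4 fell, against 28.6% and 18.2% of all genes. There foxd3 (FC 0.333) and sulf1 (0.483) fell, scospondin had 1.49 without passing, and spon1a went from 0 reads to 89. The spon1b and arx genes rose there, with FC 9.52 and 4.63. At 10 hpf 1 of the 12 genes had no reads, and the sums were 8933 in 10C, 10850.2 in 10L and 10057 in 10H. In 10H, where 6.33% of all genes fell, 3 of 10 measured floor plate genes fell: arx (0.369, 0.230 to 0.576), spon1b (0.33, 0.235 to 0.455) and ctgf, which is on the notochord list too. The other measured genes went both ways without passing. Above control were foxa2 (FC 1.70, 1.61 to 1.79), foxd3 (1.23), foxa (1.12) and foxj1a (1.10), and below it ntn1a (0.667), scospondin (0.783) and sulf1 (0.861). These genes were named for 10H after their values had been seen.

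In 24H, where 11.9% of all genes rose and 16.4% fell, 5 of 20 notochord genes rose and 4 fell. Their median log2 FC was 0.25, with summed normalized counts of 137683 in 24C, 139193 in 24L and 160497 in 24H. None of them was at 0 in any library. The ntla gene, 1 of the 20, is also among the somite genes that the study picked from these libraries. The early notochord regulator flh, also known as noto, rose from 50 reads in 24C to 792 (FC 12.8, 9.58 to 17.3), and the matrix genes epyc, matn3a and col11a2 fell with FC 0.0126, 0.0586 and 0.236. Matrix genes as a whole did not move one way, since the collagen gene col8a1a rose (FC 4.13, 3.94 to 4.33), while col2a1a had 1.28, col11a1a 1.48, loxl1 1.59, col9a1 0.926 and col9a2 0.960, none of which passed. The genes col8a1a, col11a1a, loxl1 and col9a2 were named after their values had been seen, as were ntla and matn4 below. Between the controls (24C over 10C), 13 of the 20 genes rose and 3 fell, against 28.6% and 18.2% of all genes. There flh fell (FC 0.017), while epyc, matn3a and col11a2 rose (41.2, 20.7 and 59.0). The col8a1a gene rose there too (FC 3.23). So did col2a1a, col11a1a, loxl1, col9a1 and col9a2, from 15.2 (loxl1) to 55.9 (col9a1). At 10 hpf, 5 of 19 measured notochord genes rose and none fell in 10L, whereas in 10H 1 of 18 rose and 5 fell. Over all genes, 3.65% rose and 2.39% fell in 10L, and 6.69% and 6.33% in 10H. The sums were 54087 in 10C, 57456 in 10L and 47703 in 10H. Most of each came from the coatomer genes copa, copb1 and copb2, which are on the list. They had 11638, 8453 and 13490 normalized counts in 10C, and 10232, 7245 and 9686 in 10H. The lower sum in 10H thus largely follows them, and the sums at either age are no measure of notochord tissue. The cartilage and notochord collagen gene col2a1a had FC 0.32 (0.261 to 0.389) in 10H, and col9a1 rose in 10L (2.25, 1.85 to 2.74) but fell in 10H (0.294, 0.203 to 0.418). The matricellular gene ctgf did the same, with FC 2.53 (1.91 to 3.39) and 0.121 (0.0503 to 0.254). In 10H, epyc was the one measured gene that rose, from 41 reads to 113. Below the minimum of 10 reads on average, matn4 rose there (2 reads to 14) and loxl1 fell (16 to 2). The ntla and flh genes of the same list had FC 1.80 (1.73 to 1.86) and 1.12 (1.06 to 1.17) in 10H, and neither passed. Against 10L, both were called higher, with FC 2.03 and 2.02. The median log2 FC of the measured notochord genes in 10H was -0.41.

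**Figure D5:**
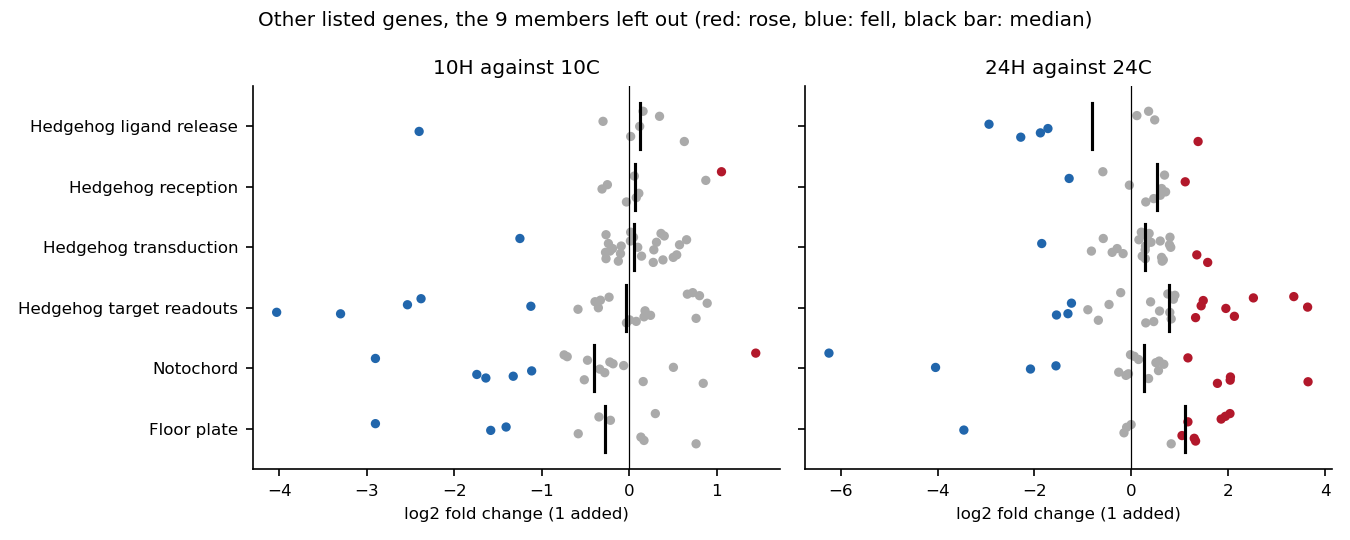
Log2 FC (horizontal axes, 1 added to normalized counts) of the measured genes of 6 lists in 10H and 24H, with the 9 Hedgehog genes left out, where each point is a gene, red points rose, blue points fell, grey points did not pass and black bars are list medians. In 24H the median of the floor plate genes lies at 1.11 and that of the target readouts at 0.77, while in 10H the called points of both lists lie to the left of 0.

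Markers of other tissues moved in the same libraries. Against 24C, the mesoderm progenitor gene tbx16 went from 26 reads to 2763 in 24H, and the endoderm gene sox32 from 0 reads to 72. The muscle gene mylz2 fell (FC 0.0649), as did the lens gene crybb1 (0.0218) and the embryonic globin gene hbbe1 (0.0663), whereas the neural genes sox2 and sox3 had 1.14 and 0.907. In 10H, tbx16 and sox32 rose too, with FC 2.99 and 6.82, and hbbe1 fell (0.315). In all, 4 of 14 whole-embryo markers rose and 6 fell in 24H, against 11.9% and 16.4% of all genes. The study had already picked tbx16 and the lens genes cryaa and crybb1 from these libraries. The count is therefore not independent of that choice. What part such differences in tissue make-up or stage have in the levels of the Hedgehog genes and of the listed genes was not tested.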

How the data were processed

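RNA of pooled whole embryos was sequenced on an Illumina HiSeq 2000 after TruSeq library preparation. The authors mapped reads to the zebrafish genome with Tophat (Zv10 in the methods, Zv9 per the labels), annotated them further by BLAST against the human genome, and normalized them by TMM in edgeR. The deposited signal is a normalized count per gene and library. The counting program and its handling of strand and of reads with several matches are not given in the sources used here, so reads shared by overlapping genes or paralogs cannot be told apart.

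Each value divided by the smallest of its library gave a whole number (100% within 0.001 reads), taken as its reads. Of 21228 entries, 11 that gather clone-named transcripts (13.9% to 15.5% of reads) were left out of the tests. The two-sided exact binomial test was run on the other 21217 genes for 7 comparisons with the deposited scaling, and was tested on simulated data. Named genes were the 9 members, other pathway genes called with at least 50 reads, up to 4 called genes per tissue or target list and comparison at the high dose, and the nearest genes of shha and gli1. Exceptions are stated where they occur. Of 196 listed symbols, 143 matched by name, 16 through RefSeq (GRCz12tu, names only) and 37 did not match. No sequences or coordinates are given. The members and lists were chosen with earlier results of these data known. Alternatives were scaling by library totals or size factors, a minimum of 10 reads, adjusted p, 4-fold, 1 added to values, and an exact test in edgeR 4.0.16 in which the coefficient of variation between pools was set to 0.2 or 0.4. Python 3.11.15, numpy 2.4.6, pandas 2.3.3, scipy 1.17.1 and R 4.3.3 were used.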

Additional observations from a re-analysis of the deposited data

Results flagged for a closer look

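The ihhb gene was called in opposite directions by 200 μg/l PCP at the 2 ages, lower in 10H and higher in 24H. The difference of its log2 FC, 24 hpf minus 10 hpf, was 3.99 (1.81 to 6.17 from counting error), and rests on 2 reads in 10H and 15 in 10C. With 1 library per group, whether the conditions differ in this way was not tested.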

How the results depend on the processing

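Without replicates no library could be left out, and an assumed variation between pools stands in for a measured one. No paired analysis was possible because each group was 1 library. Of 566 values of the 9 genes under an alternative, 544 kept their direction and their side of the threshold, 19 were no longer called and 3 reversed, all 3 under scaling by library totals and none of them called: shhb (log2 FC 0.11) and hhip (0.0705) in 10L, and smo (-0.0589) for 10H over 10L. Under that scaling fsta (0.0591), gpc4 (0.12), ihha (0.0558) and prkacab (0.13) in 10L and hhat (-0.0076) in 10H reversed as well, and the median log2 FC of all measured genes went from -0.02 to 0.11 in 10L and from 0.06 to -0.09 for 10H over 10L. With the coefficient of variation between pools set to 0.4 in edgeR, 1 of the 9 genes was called in 10L, 1 in 10H, 1 in 24H (gli1), 2 between the controls and 0 for 24H over 24L (1 in the main test). For 10H over 10L, 2 of the 9 genes (ihhb and gli3) were called, the same number as in the main test. The genes called in all then numbered 254, 694, 352 and 2436 in 10L, 10H, 24L and 24H, 5969 for age, 1144 for 10H over 10L and 1135 for 24H over 24L. Past 4-fold, 1 of the 9 genes was called in 10L and 1 in 10H (ihhb in both), and 0 in 24H, 0 for age and 0 for 24H over 24L, while the genes called in all numbered 403, 840, 449 and 2219 in the 4 treated groups, 5643 for age, 1192 for 10H over 10L and 1175 for 24H over 24L. For 10H over 10L, 2 of the 9 genes (ihhb and gli3) were called past 4-fold. With a minimum of 10 reads, 1 of the 9 was called in 10H (gli3). A two-sided p by summed probabilities was added after the data had been seen and changed no count by more than 1.5 times. Counts of called members in 24L were 0 in all settings run, including the edgeR exact test and the binomial test with adjusted p, although 6 of 9 had an unadjusted p under 0.05.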
